A study of Homo sapiens with 6 samples.

Results

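The genes described here encode the class I phosphoinositide 3-kinases (PI3K) and the AKT kinases, which form one signaling module. The 9 genes, of 36337 gene names on the array, were chosen by name: the catalytic subunits PIK3CA, PIK3CB, PIK3CD and PIK3CG, the regulatory subunits PIK3R1, PIK3R2 and PIK3R3, and the kinases AKT1 and AKT2. Every probe that carried one of these gene names was included, which gave 13 of the 50599 non-control probes. RNA was measured in 6 tumors grown from cells of the human pancreatic adenocarcinoma line BxPC-3 under the skin of female BALB/c nude mice, which lack most T cells but keep other host cells that enter a tumor. The 3 control tumors came from mice given the saline vehicle alone, and the 3 DFX-treated tumors from mice given 200 mg/kg deferasirox (DFX), an oral iron chelator, by gavage over 21 days. Tumors in both groups were grown from the same cell line, and 1 tumor was hybridized per one-color array.

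Class I PI3K phosphorylates a membrane lipid after growth factor receptors or G protein-coupled receptors are stimulated, and the lipid product recruits AKT to the membrane, where it is activated. The catalytic subunits p110-alpha, p110-beta and p110-delta (PIK3CA, PIK3CB and PIK3CD) pair with regulatory subunits of the p85 family (PIK3R1, PIK3R2 and PIK3R3), which stabilize them and bind activated receptors, whereas p110-gamma (PIK3CG) uses other adaptors. The alpha and beta forms are found in most tissues, whereas the delta and gamma forms are enriched in leukocytes. In pancreatic cancer the module lies downstream of receptor tyrosine kinases and RAS and is known for promoting survival and growth. The arrays measure transcript levels, and neither kinase activity nor phosphorylation was measured.

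All 13 probes were 60 bases long, and the file annotation placed them on hg19. The transcript identifiers of all 13 matched the same gene symbols in a RefSeq gene table (assembly GRCh38.p14), which served for names alone. The files give the transcript and position of a probe, but do not state the exon or whether it lies in an untranslated region. The following 5 probes are printed because they carry the differences described below, with the second PIK3CA probe for comparison, and in the last of them the capitals mark the stop codon that ends the reading frame.
PIK3CB, A_23_P346969, chr3:138374281-138374340, minus strand: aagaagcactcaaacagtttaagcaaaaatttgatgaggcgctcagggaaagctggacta
PIK3CA, A_23_P92057, chr3:178948163-178951939, plus strand: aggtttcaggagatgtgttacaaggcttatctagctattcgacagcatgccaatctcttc
PIK3CA, A_21_P0012238, chr3:178938816-178938875, plus strand: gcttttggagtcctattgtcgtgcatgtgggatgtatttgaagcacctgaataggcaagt
AKT2, A_33_P3400171, chr19:40761075-40761134, minus strand: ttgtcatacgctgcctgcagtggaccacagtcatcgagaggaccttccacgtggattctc
PIK3CD, A_33_P3353941, chr1:9787045-9787104, plus strand: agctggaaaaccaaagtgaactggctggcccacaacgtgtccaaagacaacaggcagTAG
The PIK3CA probe A_23_P92057 spans 3777 bases of genome with 60 bases of sequence and therefore crosses a splice junction, with 3717 bases of intron between its ends. Whether any of the probes also bind mouse transcripts of the host was not tested.

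All 13 probes passed the detection filter, which required a p-value against background under 0.05 on each of the 6 arrays, and 12 of them were well above background on every array. All arrays lay on 1 slide, the controls in row 1 and the treated tumors in row 2, so that slide row and treatment cannot be told apart. The share of all probes well above background ranged from 50.3% to 56.5% per array, and no spot was saturated. The epithelial markers of the tumor label were present, since 8 of 8 were well above background on all arrays. EPCAM, KRT8 and KRT18 among them were higher in the DFX-treated tumors at an unadjusted limma p under 0.05 (adjusted p 0.514 to 0.575). The differences at their brightest probes were 0.43, 0.48 and 0.27 on the log2 scale. The other KRT8 probes (-0.12 and 0.24) and the other KRT18 probe (0.15) did not pass. Markers of host cell types moved in both directions. Their probes are for human genes while the host cells are mouse, and whether they bind mouse transcripts was not tested. At the same unadjusted threshold, DCN (-1.30) and PDGFRA (-1.12) of 8 tested fibroblast markers were lower and LUM (0.87) was higher. Of 6 tested endothelial markers PECAM1 (1.27) was higher and TIE1 (-0.78) lower, the latter with overlapping groups. The adjusted p of these host markers was 0.504 to 0.584. The other DCN probe did not pass and was well above background in no DFX-treated tumor, whereas the other PECAM1 probes were also higher. The part of these differences in the results below was not tested. In bulk tumors, fewer cells of a type and less RNA per cell cannot be told apart. The labels do not say more about the origin of the replicates than that each was a removed tumor, and precision is limited by the number of arrays. An exact permutation test of 3 against 3 tumors cannot go below p = 0.1, so the comparisons rest on limma, which was fitted across all probes.

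The transcript of one catalytic subunit, PIK3CB, was higher in the DFX-treated tumors, and single probes of PIK3CA, PIK3CD and AKT2 were lower. The other probes of these last genes did not pass the threshold. In total, 4 of the 13 probes (30.8%) passed an unadjusted p under 0.05 in limma, compared with 8.41% of the 31807 probes tested. Of these, 3 were lower (4.95% of all tested probes were lower at this threshold) and 1 was higher (3.46% of all tested probes). This balance turned to 1 lower and 2 higher with normexp and without background correction, and to 1 of each under 75th percentile scaling. Under median scaling it was 2 lower and 0 higher. The 4 called probes of the reported analysis belonged to 4 of the 9 genes, compared with 10.6% of the 23810 gene names that had a tested probe. None of the 13 passed once p-values were adjusted by the Benjamini-Hochberg method over every probe tested, and the adjusted p of the 4 was 0.514 to 0.581. On the whole array 0 probes (0%) passed after adjustment, with a lowest adjusted p of 0.0675. The study itself picked PIK3CA, PIK3CB, PIK3CD and AKT2 from these same 6 tumors as differently expressed, so the count of 4 is not independent evidence. The median log2 fold change was 0.043 over the 13 probes and -0.025 over all tested probes.

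**Figure D1:**
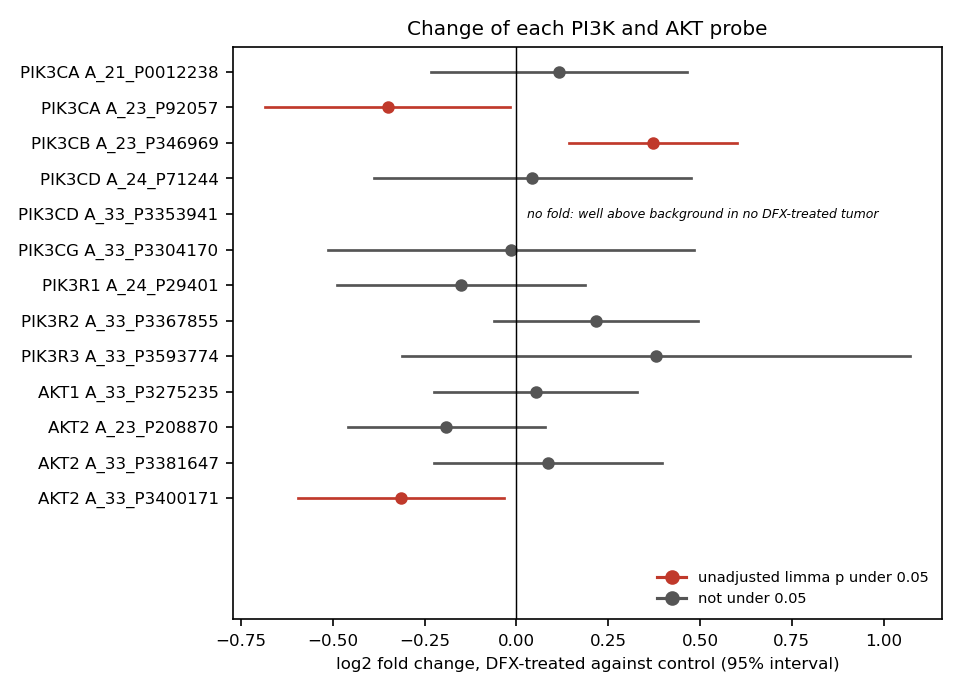
The log2 fold change of 12 of the 13 probes is plotted with its 95% interval from limma, for 3 DFX-treated against 3 control tumors. The interval of PIK3CB lies above 0 and those of 1 probe each of PIK3CA and AKT2 lie below it. No fold is drawn for PIK3CD A_33_P3353941, whose signal was well above background in none of the DFX-treated tumors.

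PIK3CB encodes p110-beta, which responds to receptor tyrosine kinases and to G protein-coupled receptors. Its only probe, A_23_P346969, gave normalized log2 intensities of 7.48, 7.49 and 7.50 in the controls and 7.91, 7.81 and 7.87 in the DFX-treated tumors. The groups did not overlap, and the SD was 0.010 in the control and 0.050 in the DFX-treated tumors (n = 3 each). The level was 29.4% higher with DFX (95% interval 10.4% to 51.8%), a log2 fold change of 0.37 (SE 0.094), which passed the unadjusted threshold in limma (adjusted p = 0.514). A change of at least this size was not unusual on the array, as 19.4% of all tested probes had a larger absolute change. The difference passed the threshold with each of the 6 tumors left out in turn. It missed the threshold under median scaling of the arrays, where it was 0.29. Within the slide columns that held an array of both groups, the DFX-treated tumor was higher by 0.33 in column 2 and by 0.37 in column 4, and with the column as a block the difference was 0.35 and did not pass.

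PIK3CA encodes p110-alpha, the catalytic subunit that transmits most signals of growth factor receptors and insulin. Its junction-spanning probe A_23_P92057 gave 8.89, 8.82 and 9.08 in the controls and 8.41, 8.57 and 8.75 in the DFX-treated tumors. All DFX-treated tumors were below all control tumors. The level decreased by 21.6% with DFX (log2 fold change -0.35, SE 0.14), which passed the unadjusted threshold (adjusted p = 0.581), and 21.2% of all tested probes had a larger absolute change. The difference was -0.32 both within slide column 2 and within slide column 4, and -0.32 with the column as a block, where it did not pass. It no longer passed without any one of control tumors 1, 2 and 3 or DFX-treated tumors 1 and 2, where it was -0.41 to -0.27.

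The second PIK3CA probe, A_21_P0012238, lies 11.2 kb away in the genome and is annotated to the same transcript. It gave 7.04, 7.24 and 6.88 in the controls and 7.25, 6.996 and 7.26 in the DFX-treated tumors, so that the groups overlapped. Its log2 fold change was 0.12 (SE 0.14, 95% interval -0.23 to 0.47, adjusted p = 0.834). The probes of PIK3CA therefore had opposite signs, and the mean over them was not called.

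PIK3CD encodes p110-delta, which serves antigen and cytokine receptors in leukocytes. The probe A_33_P3353941, which ends at the stop codon, gave 4.16, 3.99 and 3.80 in the controls and 3.42, 3.31 and 3.65 in the DFX-treated tumors. The DFX-treated tumors were all lower, and the probe passed the unadjusted threshold (adjusted p = 0.514). This probe was well above background in 1 of the 3 control tumors and in 0 of the 3 DFX-treated tumors, so no fold change is given for it. The difference no longer passed under 75th percentile scaling, with normexp background correction, without background correction or with the slide column as a block. Within the slide columns that held both groups, the DFX-treated tumor was lower in both.

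The other PIK3CD probe, A_24_P71244 (chr1:9788305-9788364, plus strand), lies 1.26 kb downstream and was well above background on all arrays. It gave 6.35, 6.72 and 6.43 in the controls and 6.51, 6.81 and 6.30 in the DFX-treated tumors. Each group held values inside the range of the other, and the log2 fold change was 0.043 (SE 0.18, 95% interval -0.39 to 0.48, adjusted p = 0.958).

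PIK3CG encodes p110-gamma, which acts downstream of chemokine and other G protein-coupled receptors in myeloid cells. Its probe A_33_P3304170 (chr7:106547292-106547351, plus strand) gave 9.82, 9.28 and 9.11 in the controls and 9.53, 9.28 and 9.35 in the DFX-treated tumors. The log2 fold change was -0.015 (SE 0.20, 95% interval -0.51 to 0.48, adjusted p = 0.989), and it was 0.19 without control tumor 1, the highest of the 6 values. Markers of leukocytes were measured beside PIK3CD and PIK3CG, because these genes are enriched in such cells. Of 17 leukocyte markers on the array, 13 were well above background on all arrays, including the pan-leukocyte gene PTPRC, and CD53, CSF1R and MS4A1 were so on no array. Their summed linear signal was 20490 to 23830 in the control and 19910 to 22490 in the DFX-treated tumors. This sum is governed by the brightest probes, such as LCP1 (mean log2 intensity 13.43, compared with 6.89 for PTPRC), and says little about the dimmer markers. Of the 14 tested markers, 0 passed an unadjusted p under 0.05. These probes are for human genes while leukocytes of the host are mouse, so their signals cannot show whether host leukocytes were present. The part of leukocytes in the PIK3CD and PIK3CG values was not tested.

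**Figure D2:**
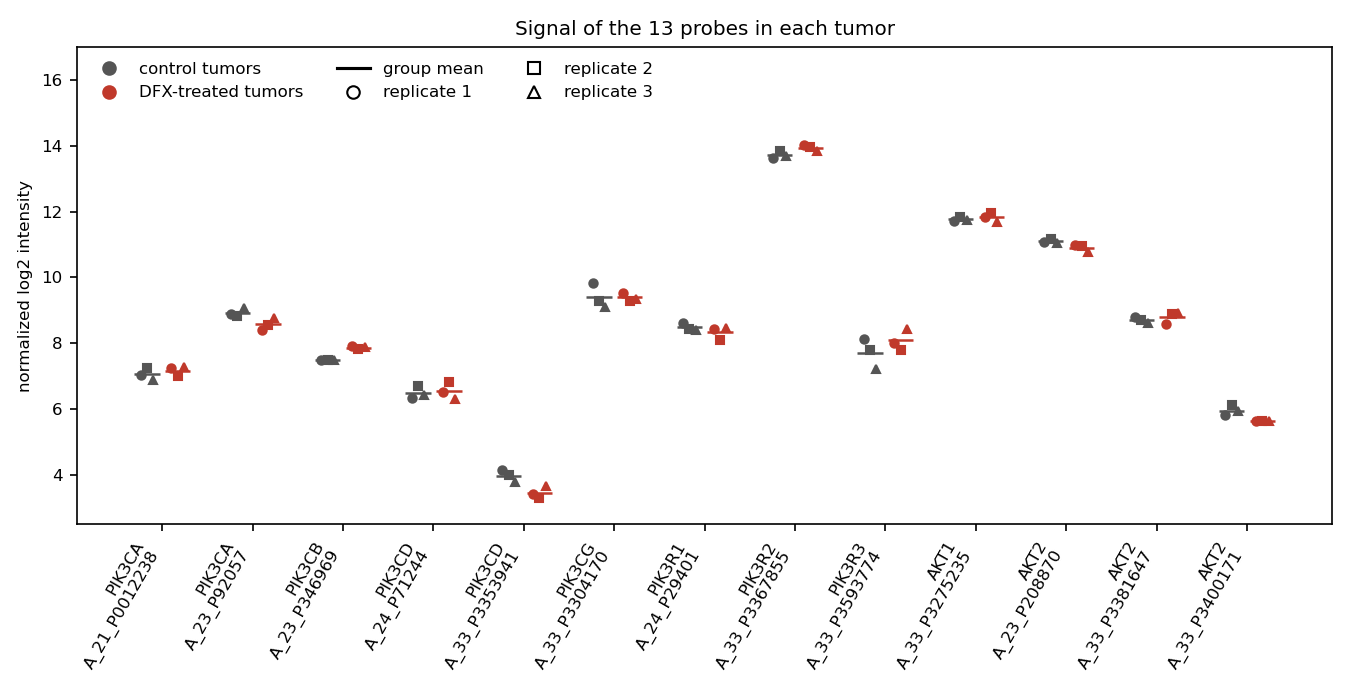
The normalized log2 intensity of each probe is plotted for each tumor, with the 3 control tumors in gray, the 3 DFX-treated tumors in red and a line at each group mean. The heights of different probes cannot be compared with each other, since probes differ in how they bind. The DFX-treated values of PIK3CB, 7.81 to 7.91, lie above the tightly grouped control values, 7.48 to 7.50, while most other probes overlap between the groups.

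None of the regulatory subunit probes passed the threshold. PIK3R1 encodes p85-alpha and shorter isoforms, and its probe A_24_P29401 (chr5:67596786-67596845, plus strand) gave 8.62, 8.43 and 8.41 in the controls and 8.42, 8.11 and 8.46 in the DFX-treated tumors. Its log2 fold change was -0.15 (SE 0.14, 95% interval -0.49 to 0.19, adjusted p = 0.773). The groups overlapped, and DFX-treated tumor 2 was the lowest, without which the difference was -0.042.

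PIK3R2 encodes p85-beta. Its probe A_33_P3367855 (chr19:18281283-18281342, plus strand) gave 13.64, 13.84 and 13.69 in the controls and 14.03, 13.95 and 13.84 in the DFX-treated tumors, with control tumor 2 just above the lowest DFX-treated tumor. The log2 fold change was 0.22 (SE 0.11, 95% interval -0.060 to 0.49, adjusted p = 0.649). It passed the unadjusted threshold with normexp background correction and without background correction, at 0.23 in both.

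PIK3R3 encodes p55-gamma, a shorter regulatory subunit. Its probe A_33_P3593774 (chr1:46511591-46511650, minus strand) gave 8.13, 7.78 and 7.20 in the controls and 8.02, 7.80 and 8.44 in the DFX-treated tumors. With a log2 fold change of 0.38, close to that of PIK3CB, it had the widest spread of the 13 probes (SE 0.28, 95% interval -0.31 to 1.07, adjusted p = 0.731). Control tumor 3 was the lowest, and without it the difference was 0.13. With single tumors left out in turn the difference ranged from 0.13 to 0.59 and did not pass.

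AKT1 and AKT2 encode serine-threonine kinases that act on regulators of survival, glucose uptake and protein synthesis. The AKT1 probe A_33_P3275235 (chr14:105235975-105236034, minus strand) gave 11.73, 11.85 and 11.76 in the controls and 11.84, 11.95 and 11.69 in the DFX-treated tumors. The log2 fold change was 0.053 (SE 0.11, 95% interval -0.22 to 0.33, adjusted p = 0.910) and came to -0.059 under median scaling, which put the median of all probes at -0.10 and AKT1 at 0.044 relative to it. The interval reaches from -14.4% to 25.6%.

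AKT2 had 3 probes on the same transcript. The farthest from the 3' end, A_33_P3400171, gave 5.81, 6.11 and 5.95 in the controls and 5.64 in each of the DFX-treated tumors, which were all lower. The level decreased by 19.6% (log2 fold change -0.31, SE 0.12), which passed the unadjusted threshold (adjusted p = 0.575). This probe passed in 8 of 19 alternative analyses, and with normexp or without background correction its difference was -0.11 and did not pass. When single tumors were left out it passed without control tumor 1, at -0.39, and did not pass without any one of the other 5 tumors, at -0.32 to -0.24. Within the slide columns it was -0.17 in column 2 and -0.30 in column 4, and with the column as a block -0.24, where it did not pass.

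The brightest AKT2 probe, A_23_P208870 (chr19:40738703-40738762, minus strand), lies 22.4 kb away. It gave 11.06, 11.17 and 11.05 in the controls and 10.98, 10.95 and 10.77 in the DFX-treated tumors. The groups did not overlap, but the log2 fold change of -0.19 (SE 0.11, 95% interval -0.46 to 0.077) did not pass (adjusted p = 0.671). The third probe, A_33_P3381647 (chr19:40736224-40736283, minus strand), gave 8.79, 8.71 and 8.62 in the controls and 8.60, 8.88 and 8.91 in the DFX-treated tumors. Its groups overlapped, with a log2 fold change of 0.086 (SE 0.13, adjusted p = 0.864) that was -0.021 under median scaling and 0.082 relative to the median of all probes there.

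Over the 9 genes, 5 probes had groups without overlap (38.5%, compared with 15.5% of all tested probes), namely the 4 called probes and the brightest AKT2 probe. The study had picked the genes of these probes from the same tumors, so neither this count nor the gene counts after it are independent evidence. When each gene was represented by its brightest tested probe, 2 genes passed an unadjusted p under 0.05, PIK3CB higher and PIK3CA lower, compared with 7.91% of all gene names by the same rule. When the tested probes of a gene were averaged, only PIK3CB passed, compared with 8.04% of all gene names.

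To ask whether probes of one gene changed by different amounts, the difference between each probe and the brightest probe of its gene was computed within each tumor and fitted with limma over 7997 such pairs from 5714 genes. At an unadjusted p under 0.05, 9.93% of all pairs differed, and 0 of the 4 pairs of PIK3CA, PIK3CD and AKT2 did. These 4 pairs are too few to set against that share. For PIK3CA, A_21_P0012238 minus A_23_P92057 was -1.85, -1.58 and -2.20 in the controls and -1.16, -1.57 and -1.49 in the DFX-treated tumors. The fitted change of 0.47 (SE 0.20, 95% interval -0.027 to 0.96, adjusted p = 0.518) did not pass, although the groups did not overlap. It passed the unadjusted threshold with normexp background correction (0.39), without background correction (0.39) and without control tumor 2 (0.61). The fitted change in the difference between the PIK3CD probes did not pass (adjusted p = 0.532), passed without DFX-treated tumor 3, and is not given as a size, since A_33_P3353941 was well above background in none of the DFX-treated tumors. For AKT2 the changes were 0.28 (SE 0.16, adjusted p = 0.585) for A_33_P3381647, which passed without DFX-treated tumor 1 at 0.41, and -0.12 (SE 0.11, adjusted p = 0.709) for A_33_P3400171. A difference in response between the probes of these genes was therefore not shown, and neither was an equal response, since the intervals are wide.

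**Figure D3:**
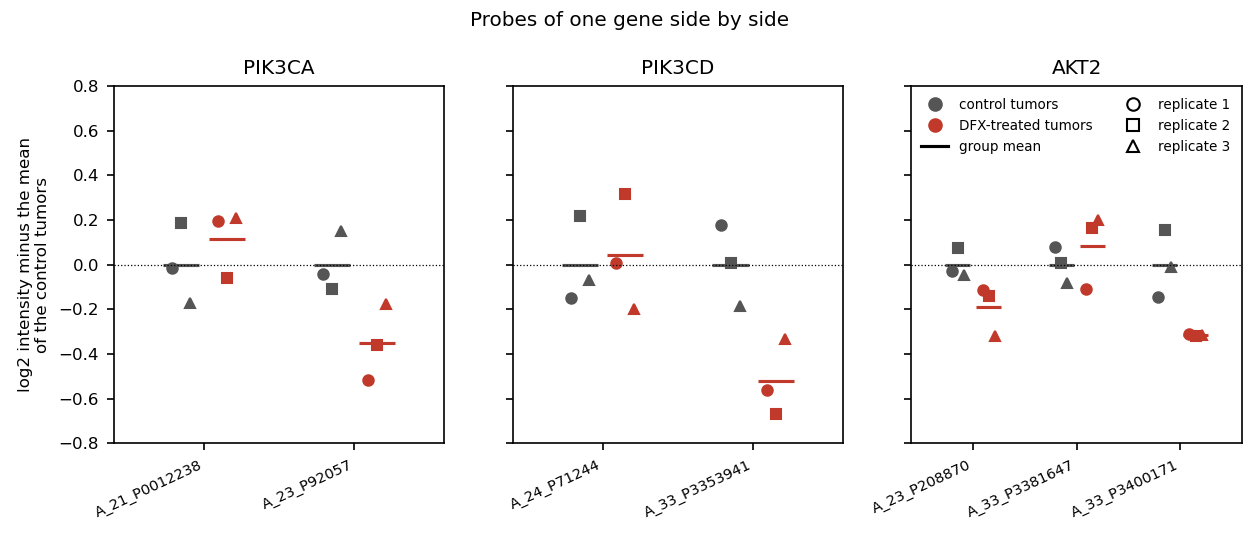
For the genes with several probes, each tumor's log2 intensity is plotted minus the control mean of the same probe, with control tumors in gray, DFX-treated tumors in red and lines at the group means. The PIK3CD probe A_33_P3353941 was well above background in 1 control tumor and no DFX-treated tumor. PIK3CA A_23_P92057 has all DFX-treated tumors below the controls, whereas PIK3CA A_21_P0012238 does not. The AKT2 probes A_23_P208870 and A_33_P3400171 lie below the controls in all DFX-treated tumors and A_33_P3381647 does not.

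The other genes of the pathway were described from 7 lists with 71 genes, of which 69 had a tested probe. Any probe passed for 6 of these genes (8.70%, compared with 10.6% of all gene names), 3 lower and 3 higher, none after adjustment. By the brightest probe the point estimates were lower for 40 genes and higher for 29, with a median of -0.023, compared with -0.012 over all tested genes. The medians of the lists lay between -0.077 and -0.0041. Each came to between -0.18 and -0.083 under median scaling, which put the median of all probes at -0.10. With single tumors left out the medians moved in both directions, for example to 0.11 for the FOXO targets without control tumor 1 and to -0.15 for the other family genes without control tumor 2.

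No probe passed for the other 7 tested PI3K and AKT family genes, the 6 tested receptors and adaptors upstream of PI3K or the 8 AKT-activating and mTOR complex 2 genes. PDPK1, the kinase that phosphorylates AKT at the membrane, had values of 0.16 (SE 0.12, adjusted p = 0.728) and -0.24 (SE 0.15, adjusted p = 0.702) at its probes. MTOR, the kinase of both mTOR complexes, had a log2 fold change of -0.0098 (SE 0.096, adjusted p = 0.986).

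Among 10 phosphatases and inhibitors, TRIB3, a pseudokinase that binds AKT and is also a target of the stress transcription factors ATF4 and CHOP, was the only gene called. It gave 10.86, 11.30 and 10.79 in the controls and 11.94, 11.93 and 11.87 in the DFX-treated tumors. All DFX-treated tumors were above all control tumors, a 1.91-fold difference (log2 fold change 0.93, SE 0.16, adjusted p = 0.504).

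In the remaining lists, 2 of 12 genes of mTOR complex 1 and its outputs, 2 of 14 AKT substrates and SGK kinases and 1 of 12 FOXO target genes had a called probe. These were RPS6KB1, the S6 kinase (-0.38, SE 0.11), TSC2, an inhibitor of mTOR complex 1 (0.32, SE 0.13, with overlapping groups), MDM2, the ubiquitin ligase of p53 (-0.37, SE 0.12), and BCL2L11, a pro-apoptotic gene (-0.41, SE 0.11). In each of these 4 genes the called probe was not the brightest one (adjusted p of the called probes 0.514 to 0.592). The brightest TSC2 probe had the opposite sign (-0.13, SE 0.15). The brightest probes of RPS6KB1 (-0.11), MDM2 (-0.092) and BCL2L11 (-0.16) did not pass. Another probe of each of these had the opposite sign, at 0.16, 0.052 and 0.083 in that order. The fifth was SGK2, a kinase related to AKT, which gave 3.44, 4.45 and 3.69 in the controls and 4.96, 4.93 and 4.55 in the DFX-treated tumors. SGK2 differed by 0.95 (SE 0.28, adjusted p = 0.526), but only 1 of 3 control tumors was well above background, so the size of this difference is uncertain.

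**Figure D4:**
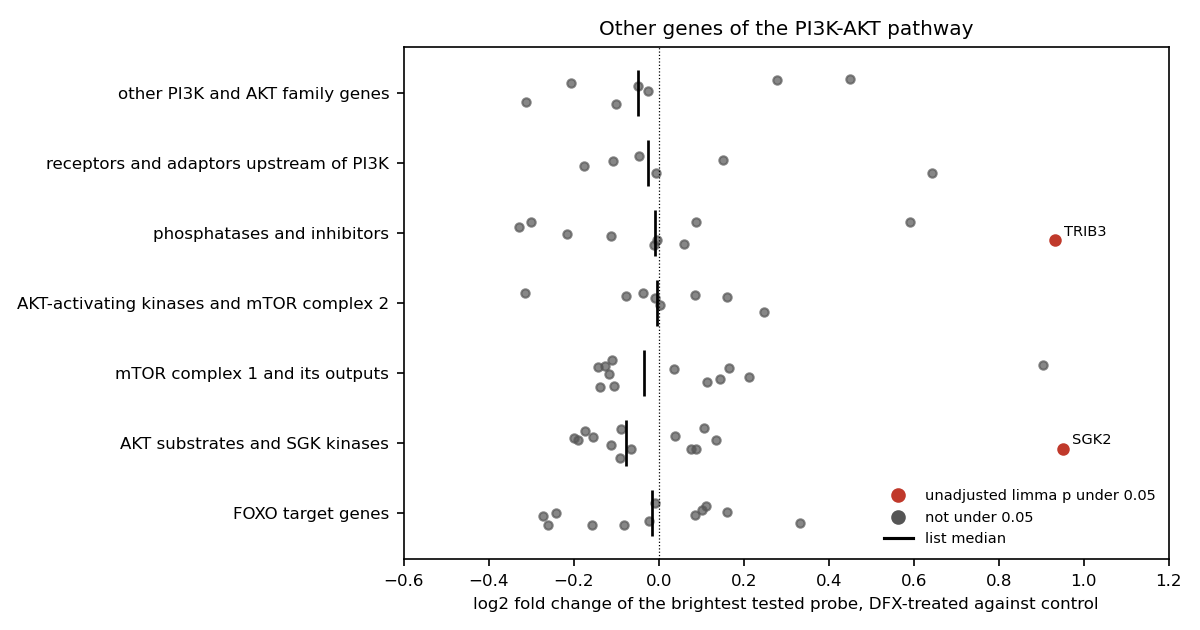
Each point is the log2 fold change of 1 gene at its brightest tested probe, DFX-treated against control tumors, for the 69 tested genes in 7 pathway lists, with a line at each list median and red points at an unadjusted limma p under 0.05. TRIB3 (0.93) and SGK2 (0.95) are the called genes at this probe, and the list medians lie between -0.077 and -0.0041.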

How the data were processed

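RNA of 6 BxPC-3 xenograft tumors (3 control, 3 DFX) was measured on one-color arrays, grouped by the sample labels. The authors deposited scanner files with intensity values on a linear scale and a background p-value for each spot (Agilent Feature Extraction 10.7.1.1 per the file headers, 9.5.1.1 per the labels), and a table of their normalized intensity values, used as an alternative. Here the background-subtracted signal of 58717 non-control spots was log2-transformed and quantile-normalized, 1398 flagged spot values were left out, spots were averaged per probe, and 31807 of 50599 probes, those whose p-value was under 0.05 on each of the 6 arrays, were tested with limma 3.58.1 in R 4.3.3 (lmFit, eBayes, tested on simulated data), adjusting by Benjamini-Hochberg over these probes. The paper's threshold names no adjustment, so calls use the unadjusted p. p-values measure the spread between these tumors. The 9 genes and the pathway and marker lists were chosen with earlier results of these data known. All probes of the 9 genes are named. Of the pathway genes, those called at any probe are named, with MTOR and PDPK1, and some others that the rule covers are not reported here. Alternatives covered scaling, background, filters, flags, test, weights, blocks, the probe standing for a gene and each tumor left out.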

Additional observations from a re-analysis of the deposited data

How the results depend on the processing

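Of the 13 probes, 4 passed in the analysis reported (8.41% of all tested probes did). Under the alternatives, 2 passed with 75th percentile scaling (PIK3CA, PIK3CB; 7.85% of all probes), 2 with median scaling (8.4%), 3 with normexp and 3 without background correction (8.7% and 9.04%), 0 with the slide column as a block, which leaves 1 residual degree of freedom (4.46%), and 2 to 3 with single tumors left out (2 without control tumor 2 or 3 or DFX-treated tumor 1 or 2). The numbers of genes with a called probe were the same, and were 2 by the brightest probe and 1 by the mean of probes. With the replicate number as a replicate block 3 passed (7.61%), AKT2 A_33_P3400171 being lost, and the numbers did not pair the tumors (correlations of deviations 0.0158 to 0.0274). The Kruskal-Wallis H test called 5 (15.5% of all probes). With 3 against 3 tumors its approximate p falls under 0.05 only where the groups do not overlap, so it adds nothing to that count. It is included among the 19 alternatives. PIK3CB passed in 17 of 19 alternatives (0.25 to 0.40) and PIK3CA A_23_P92057 in 13 of 19 (-0.46 to -0.27). Signs turned for AKT1 (-0.059 under median scaling), AKT2 A_33_P3381647 (-0.021 under median scaling), PIK3CG (0.0016 with normexp, 0.013 with array weights) and the AKT2 A_33_P3400171 pair (0.040 with normexp, 0.042 without background correction). With single tumors left out the ranges were -0.0088 to 0.12 for AKT1, -0.16 to 0.19 for PIK3CG and -0.094 to 0.16 for PIK3CD A_24_P71244. Probe pairs that passed rose from 0 to 1 with normexp and without background correction, and were 0 to 1 with tumors left out. Pathway genes with a called probe rose from 6 to 11 under median scaling and 10 without the detection filter, and were 3 (without control tumor 2) to 10 (without control tumor 1) with tumors left out. Median scaling put the median of all probes at -0.10, and relative to it PIK3CB was at 0.39, AKT1 at 0.044 and AKT2 A_33_P3381647 at 0.082. Of all called probes, 58.8% were lower, 42.6% under 75th percentile and 71.8% under median scaling. The cause of these changes was not tested.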
